A study of Mus musculus with 6 samples.

Results

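The genes described here are 10 genes that make, sense and break down retinoic acid, namely Dhrs9, Dhrs3, Rdh10, Aldh1a1, Aldh1a2, Aldh1a3, Rara, Rarb, Rarg and Cyp26b1. They were taken by symbol from a count table of 54429 genes in endothelial cells (EC) that overexpress the transcription factor Meis1. The set was chosen by known role and on 1 measured value, since Dhrs9 was among the largest falls in Meis1-OE EC in the same comparison. The change of Dhrs9 is therefore described with no test, and the other 9 genes were picked with earlier results of these data known.

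Retinoic acid is made from retinol (vitamin A) in consecutive oxidations. Retinol dehydrogenases such as Rdh10 and Dhrs9 turn retinol into retinal, Dhrs3 turns retinal back into retinol, and the Aldh1a enzymes turn retinal into retinoic acid, which Cyp26 enzymes then hydroxylate for removal. Retinoic acid binds the nuclear receptors RARα, RARβ and RARγ (Rara, Rarb and Rarg), which sit on DNA as partners of the RXR receptors, and the signal is known for its part in the hemogenic endothelium from which blood stem cells arise.

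The libraries came from primary aortic EC of adult WT C57BL/6 mice, transduced with the Meis1-OE vector (3 libraries) or with the YFP-CTRL vector (3 libraries). Both conditions had 48 h of contact with virus and a sort at 72 h for cells carrying YFP together with the endothelial proteins CD31 and VEC. The sorted cells grew to a full layer in a further culture before RNA was taken for ribodepleted RNA-seq. They are cultured adult EC and not embryonic endothelium, and every value refers to a whole culture, in which fewer cells that express a gene and less RNA per cell cannot be told apart. Libraries carry the letters A, B and C of the deposited table, and a letter is not known to mark a shared batch. Where 3 values are given for a condition, they are those of libraries A, B and C, in that order.

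Depth ran from 34176592 to 47956569 counts per library. Meis1 was counted 135325 to 157828 times in the Meis1-OE libraries and 39 to 85 times in the YFP-CTRL libraries, and reads of the vector and of the endogenous gene were not separated. The 6 endothelial markers looked at, with Cdh5 the highest, summed to between 2823 and 3597 CPM (counts scaled to a common library size with TMM normalization) in Meis1-OE EC and to between 3959 and 5585 CPM in YFP-CTRL EC. Cdh5, Kdr and Tek were lower in every Meis1-OE library (log2 fold changes of -0.70, -1.23 and -0.78). Pecam1, Tie1 and Erg overlapped between the conditions (-0.11, 0.07 and 0.10), so the sum does not describe the list. Of the markers of other cell types, 4 of 5 epithelial and 4 of 7 macrophage genes had 0 counts throughout, and their sums were at most 0.109 and 1.48 CPM. Other lists were higher, with sums of up to 121 CPM for mesothelial, 49.5 CPM for fibroblast and 558 CPM for lymphatic markers, and are described at the end. The YFP-CTRL libraries differed in proliferation score, the mean log2(CPM + 1) of 15 cell cycle genes. It was 4.0 in YFP-CTRL A, 5.07 in YFP-CTRL B, 6.36 in YFP-CTRL C and 6.39 to 6.46 in the Meis1-OE libraries. By this score YFP-CTRL C was the control nearest to the Meis1-OE libraries and YFP-CTRL A the furthest from them. Values without YFP-CTRL C are therefore given for the tested genes among the 10, and for the other genes named where its removal changes the call. The part of YFP-CTRL C in the values was not tested.

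Of the 10 genes, 7 had enough counts to be tested among 16065 genes. The remaining 3 (Aldh1a2, Aldh1a3 and Rarb) never exceeded 3 counts in a library. Among the 6 tested genes other than Dhrs9, Cyp26b1 and Rara fell past the threshold in Meis1-OE EC, which was a p of 0.05 in the quasi-likelihood test of edgeR after Benjamini-Hochberg adjustment over all genes tested, and 0 rose. Over all genes tested, 2.73% fell and 4.14% rose past that threshold, so calls were 60.3% upward, and 85.3% upward when libraries were scaled by their totals alone. The median log2 fold change of the 6 genes was -0.26, against 0.01 for all genes tested. All 3 Meis1-OE libraries lay below all 3 YFP-CTRL libraries for 3 of the 6 genes (Rdh10, Rara and Cyp26b1) and above them for 0 of the 6, where 15.9% and 17.2% of all genes tested were separated in this way.

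**Figure D1:**
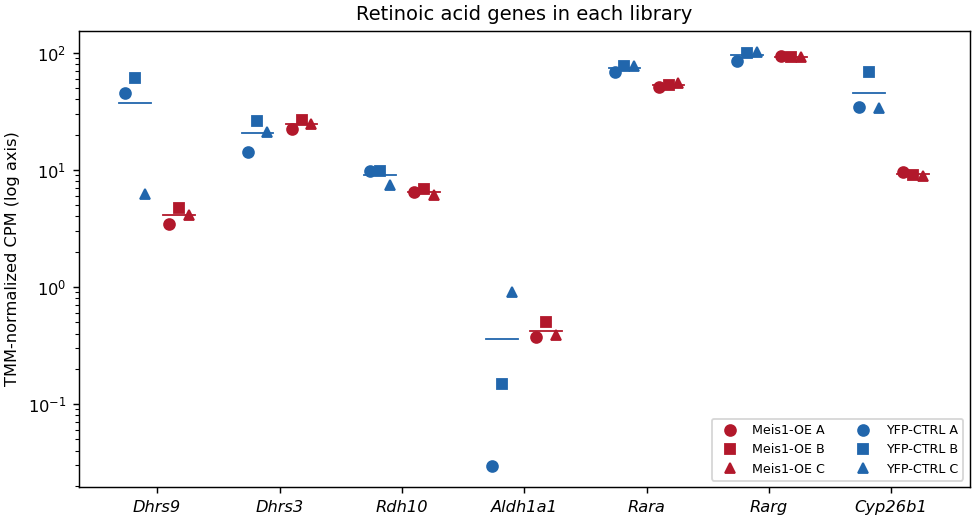
TMM-normalized CPM (log axis) of the 7 tested genes in each library, with YFP-CTRL in blue, Meis1-OE in red, symbols for the library letters and a line at the mean of each condition. Cyp26b1, Rara and Rdh10 separate the conditions, Dhrs9 of YFP-CTRL C (6.25 CPM) lies just above the Meis1-OE libraries, and Dhrs3, Aldh1a1 and Rarg overlap.

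Per kilobase of exon, Rarg was the most abundant of the 10 genes in both conditions, at 23.3 ± 2.29 CPM per kb in YFP-CTRL EC and 22.5 ± 0.321 CPM per kb in Meis1-OE EC (SD, n = 3 each). Rara came next, at 16.2 ± 1.11 and 11.6 ± 0.463 CPM per kb. In YFP-CTRL EC the next genes were Cyp26b1 (9.95 ± 4.35 CPM per kb), Dhrs9 (8.73 ± 6.54) and Dhrs3 (7.01 ± 2.07). Their ranges of mean ± SD overlapped, but the Dhrs9 mean covers unlike libraries. In YFP-CTRL C, Dhrs9 was at 6.25 CPM, against 33.7 CPM for Cyp26b1 and 20.9 CPM for Dhrs3. In Meis1-OE EC, Dhrs3 was at 8.40 ± 0.757 CPM per kb, Cyp26b1 at 1.99 ± 0.0707 and Dhrs9 at 0.955 ± 0.149. Rdh10 was at 2.15 ± 0.314 CPM per kb in YFP-CTRL EC and 1.56 ± 0.0917 in Meis1-OE EC, below the retinal reductase Dhrs3 in both.

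The breakdown enzyme gene Cyp26b1 (chr6:84571414-84593908, GRCm38) had the largest change that could be tested. It was at 9.51, 9.09 and 8.87 CPM in Meis1-OE EC, and at 34.7, 68.9 and 33.7 CPM in YFP-CTRL EC. The Meis1-OE libraries lay close together and all below the lowest YFP-CTRL library, and YFP-CTRL B was the highest. Its log2 fold change was -2.32 (standard error 0.29, 95% interval -3.01 to -1.64, adjusted p = 0.0080 from edgeR), which leaves 20.01% of the control level. YFP-CTRL C, whose proliferation score was like that of the Meis1-OE libraries, was level with YFP-CTRL A. Without YFP-CTRL C the log2 fold change of Cyp26b1 was -2.52 (adjusted p = 0.00179 from edgeR), and a covariate for the proliferation score made it -2.25 (adjusted p = 0.0260). In those fits 15.2% and 1.97% of all genes tested fell, and 16.5% and 2.37% rose. The Meis1-OE scores hardly differ (6.39 to 6.46), so the slope of the covariate rests mostly on the YFP-CTRL libraries. This limit holds for every value given with the covariate. The call was lost when Meis1-OE B or Meis1-OE C was left out, with log2 fold changes of -2.31 and -2.30 (adjusted p = 0.0583 and 0.0555 from edgeR).

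Cyp26a1, the family member that retinoic acid is best known to induce, had 2, 1 and 4 counts in Meis1-OE EC and 0 in every YFP-CTRL library. Cyp26c1 never exceeded 7 counts. Both were too low to be tested, so nearly all Cyp26 reads in these EC came from Cyp26b1.

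Of the receptors, Rara (chr11:98927800-98974942) fell and Rarg did not pass the threshold. Rara was at 50.8, 52.6 and 55.0 CPM in Meis1-OE EC and at 68.2, 77.3 and 76.7 CPM in the YFP-CTRL libraries. The conditions did not overlap, and YFP-CTRL C was close to YFP-CTRL B. The log2 fold change of Rara was -0.49 (standard error 0.11, 95% interval -0.74 to -0.24, adjusted p = 0.0418 from edgeR), that is, 71.3% of the control level. It was -0.48 without YFP-CTRL C and -0.58 with the covariate, where edgeR gave an adjusted p of 0.0120 and of 0.0358. The call was lost in 7 of 13 alternatives. Among them, Rara was at -0.46, -0.48 and -0.52 without Meis1-OE library A, B or C and at -0.45 without YFP-CTRL B (adjusted p = 0.150, 0.228, 0.181 and 0.125 from edgeR), and at -0.48 with no filter on low counts (adjusted p = 0.0872). On library totals, where the median of all genes tested was 0.15, it was at -0.35 (adjusted p = 0.0695 from edgeR).

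Rarg (chr15:102234938-102257522) was at 91.5 to 93.9 CPM in the Meis1-OE libraries and at 84.9, 101 and 102 CPM in YFP-CTRL EC. The conditions overlapped, and the log2 fold change was -0.05 with a 95% interval of -0.31 to 0.21 (adjusted p = 0.812 from edgeR), and -0.02 without YFP-CTRL C. A fall as large as the point estimate for Rara lies outside that interval. Rarb (chr14:16430839-17082331), which retinoic acid itself is known to induce in many cells, had 1, 0 and 1 counts in Meis1-OE EC and 0, 1 and 1 in YFP-CTRL EC. In a library of this depth, 3 counts correspond to between 0.0648 and 0.0883 CPM, and Rarb was not detectable above that level in either condition.

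The make-up of the RAR family was also measured within each library, which removes the library scaling but rests on the same counts as the fold changes of the single genes. Counted per exon length, Rara was 32.7%, 34.01% and 35.1% of the RAR family in Meis1-OE EC and 41.9%, 40.8% and 40.4% in YFP-CTRL EC. Every Meis1-OE library lay below every YFP-CTRL library, and the 3 YFP-CTRL libraries lay within 2 percentage points of each other. The means were 33.9 ± 1.18% and 41.1 ± 0.804% (SD, n = 3 each), a difference of -7.13 percentage points. An exact two-sided permutation test gave p = 0.1, which is the smallest that 3 libraries against 3 allow. The difference lay between -7.70 and -6.52 when any single library was left out, and was -7.30 on raw counts.

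The RXR partners did not pass the threshold. Rxra was at 31.7 to 35.2 CPM in Meis1-OE EC and 33.5 to 39.3 CPM in YFP-CTRL EC, with a log2 fold change of -0.12 (95% interval -0.39 to 0.15, adjusted p = 0.554 from edgeR). Rxrb was at 20.5, 19.3 and 20.3 CPM in Meis1-OE EC and at 36.2, 27.6 and 20.1 CPM in YFP-CTRL EC, so YFP-CTRL C lay among the Meis1-OE libraries. Its log2 fold change was -0.48 (adjusted p = 0.196 from edgeR), -0.68 without YFP-CTRL C (adjusted p = 0.00924) and 0.01 with the covariate (adjusted p = 0.966). Rxrb was 47.2 ± 1.03% of the RXR family per length in Meis1-OE EC and 52.8 ± 6.24% in YFP-CTRL EC (SD, n = 3 each, exact two-sided permutation p = 0.4). Rxrg had 0 counts in every library.

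**Figure D2:**
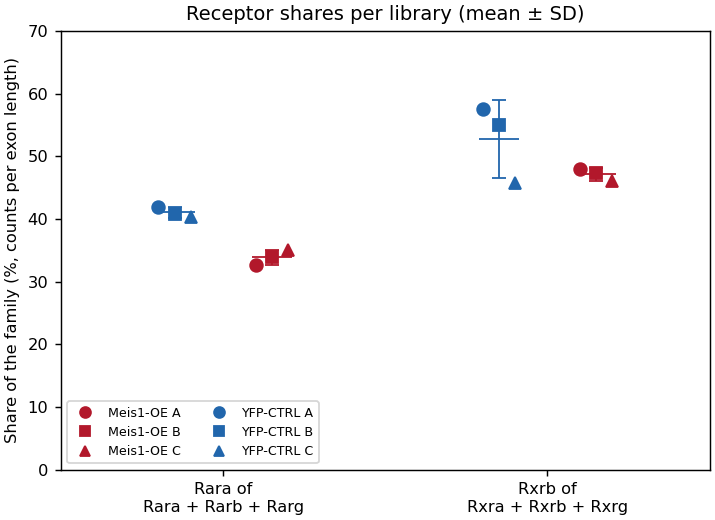
Share of Rara in the RAR family and of Rxrb in the RXR family (%, counts per exon length) in each library, with the mean and SD of each condition. The Rara share lies between 32.7% and 35.1% in Meis1-OE EC and between 40.4% and 41.9% in YFP-CTRL EC, while the Rxrb share of YFP-CTRL C (45.7%) lies at the level of the Meis1-OE libraries.

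Promoter sequence bears on these genes because RAR and RXR pairs are known to bind direct repeats of a hexamer in the promoters of Rarb and Cyp26a1. Windows of 250 bases before the transcript start were taken from RefSeq (GRCm38.p6), where 8 of the 10 genes had 15 windows. The hexamer was searched on both strands as AGGTCA or AGTTCA or GGGTCA or GGTTCA, the DR5 repeat as a pair of hexamers in the same direction 5 bases apart, and the core of the Meis motif as TGACAG. A DR5 match always contains hexamers. The hexamer was in 38.6% of all 32851 windows, the Meis core in 15.9%, DR5 in 0.0883% (29 windows) and the same repeat with a spacing of 2 bases (DR2) in 0.174%. The 10 genes and the other pathway genes listed are 72 in all, of which 48 had a window and the rest were not searched. Of their 68 windows, 2 held a DR5 match, those of Rarb and Cyp26a1, and 0 held a DR2 match. These matches, in genes of which neither had more than 4 counts in any library, and the windows of Cyp26b1 and Dhrs9, the lowest fold changes among the 10 genes, are shown 5′ to 3′ on the strand of the gene, with matches in capitals. The Rarb window lies inside the span of the gene, before the start of one of its shorter transcripts. For Cyp26b1 the 152 bases outside the span of the gene are printed, and for Cyp26a1 only the match, as it reads on the minus strand.
Rarb, chr14:16575477-16575726, minus strand: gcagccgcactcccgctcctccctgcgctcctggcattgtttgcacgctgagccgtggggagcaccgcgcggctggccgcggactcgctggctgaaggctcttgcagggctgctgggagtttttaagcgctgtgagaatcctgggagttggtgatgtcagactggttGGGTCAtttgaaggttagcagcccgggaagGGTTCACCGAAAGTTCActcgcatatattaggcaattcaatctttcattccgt
Cyp26a1 match, chr19:37697776-37697792, minus strand: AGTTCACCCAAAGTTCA
Cyp26b1, chr6:84593909-84594060, minus strand: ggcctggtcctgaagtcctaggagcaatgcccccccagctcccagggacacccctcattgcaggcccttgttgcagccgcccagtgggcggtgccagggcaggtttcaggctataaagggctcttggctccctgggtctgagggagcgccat
Dhrs9, chr2:69380212-69380461, plus strand: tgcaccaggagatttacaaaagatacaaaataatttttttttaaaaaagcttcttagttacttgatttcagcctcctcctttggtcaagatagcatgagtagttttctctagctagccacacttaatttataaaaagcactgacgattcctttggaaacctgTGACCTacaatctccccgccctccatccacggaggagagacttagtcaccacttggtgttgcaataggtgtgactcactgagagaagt
In the Rarb window the DR5 match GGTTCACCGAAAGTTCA began 53 bases before the start on the strand of the gene, beside 1 further hexamer. In the Cyp26a1 window the DR5 match lay on the strand opposite to the gene, over the bases 32 to 16 before the start, and, as in Rarb, inside the span that RefSeq gives the gene. The Dhrs9 window held 1 hexamer, on the other strand, from 88 bases before the start, and the whole Cyp26b1 window of 250 bases held none of the motifs searched. The Meis core was in 1 of the 15 windows, 1 of the windows of Aldh1a1, and in none of those of Cyp26b1, Rara or Dhrs9. A match is a description of these letters and not of a bound site.

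Dhrs9 (chr2:69380462-69403086), which encodes a dehydrogenase of retinol, had the lowest log2 fold change of the 10 genes, at -3.19, and is described with no test since its fall was used to choose the set. It was counted 158, 215 and 189 times in Meis1-OE EC and 1542, 2471 and 284 times in YFP-CTRL EC. This is 3.46, 4.73 and 4.08 CPM in Meis1-OE EC against 45.4, 60.5 and 6.25 CPM in YFP-CTRL EC. The conditions did not overlap, but YFP-CTRL C lay near the Meis1-OE libraries and far from the other YFP-CTRL libraries, so the control mean of 37.4 ± 28.0 CPM (SD, n = 3) describes none of them. Without YFP-CTRL C the log2 fold change was -3.71. A fit with the proliferation covariate gave -1.31. The 5 tested genes whose log2(CPM + 0.5) was most like that of Dhrs9 over the 6 libraries were Dennd4a, Uqcr10, Rest, Ywhag and Xpot (Pearson r from 0.9978 to 0.9995, a description over libraries that fall into clusters). Each was high in YFP-CTRL A and B and lower in YFP-CTRL C, as Dennd4a was at 74.8, 83.9 and 35.5 CPM in YFP-CTRL EC and at 28.1 to 31.2 CPM in Meis1-OE EC.

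The 5 genes nearest in pattern to Cyp26b1 were Mro, Nfib, Spg20, Mapk6 and Dpysl3 (Pearson r from 0.9964 to 0.9982 over 6 libraries). They had high values in all 3 YFP-CTRL libraries, whereas the genes most like Dhrs9 were lower in YFP-CTRL C. YFP-CTRL B was the highest library in both sets, as in Dhrs9 and Cyp26b1. Dpysl3, for example, was at 526, 768 and 466 CPM in YFP-CTRL EC and at 243 to 261 CPM in Meis1-OE EC. Both sets of 5 genes were picked by these correlations, so each repeats the profile of its own gene by choice and is no separate result.

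**Figure D3:**
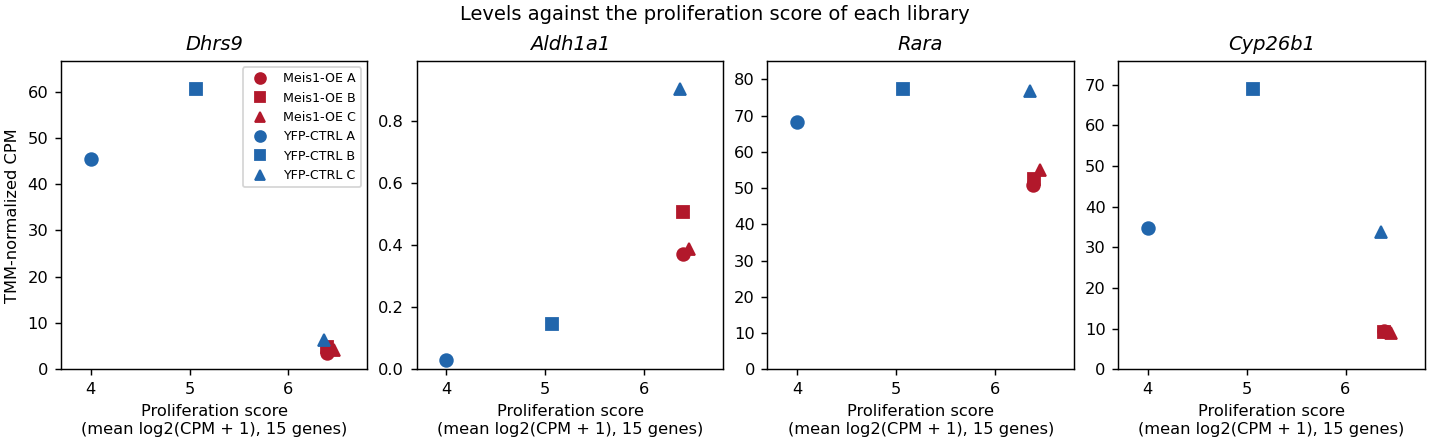
TMM-normalized CPM (linear axes from 0) of Dhrs9, Aldh1a1, Rara and Cyp26b1 against the proliferation score of each library. YFP-CTRL C, with a score of 6.36 close to the Meis1-OE libraries, has Dhrs9 near their level (6.25 CPM). Its Rara (76.7 CPM) is at the level of the other YFP-CTRL libraries. Its Cyp26b1 (33.7 CPM) is level with YFP-CTRL A (34.7 CPM) and below YFP-CTRL B (68.9 CPM).

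Rdh10 (chr1:16105882-16132550), the main retinol dehydrogenase of the embryo, was lower in each Meis1-OE library than in each YFP-CTRL library without passing the threshold. It was at 6.49, 6.85 and 6.09 CPM in Meis1-OE EC and at 9.71, 9.73 and 7.46 CPM in the YFP-CTRL libraries. YFP-CTRL C was again the control nearest to the Meis1-OE libraries. The log2 fold change was -0.47 (95% interval -0.85 to -0.08, adjusted p = 0.131 from edgeR), -0.60 without YFP-CTRL C (adjusted p = 0.0158) and -0.25 with the covariate (adjusted p = 0.499).

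Dhrs3 (chr4:144892534-144928209), the reductase that returns retinal to retinol and a known target of retinoic acid, overlapped between the conditions. It was at 22.4, 26.8 and 24.6 CPM in Meis1-OE EC and at 14.3, 26.4 and 20.9 CPM in the YFP-CTRL libraries, where YFP-CTRL A was the lowest of all. Its log2 fold change was 0.26, with a 95% interval of -0.26 to 0.78 (adjusted p = 0.491 from edgeR), and 0.25 without YFP-CTRL C.

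The last step of synthesis was barely represented. Aldh1a2 (chr9:71215789-71296243), the main enzyme of the embryonic trunk, had 0 counts in all 6 libraries, and Aldh1a3 (chr7:66390892-66427477) had 3, 0 and 1 counts in Meis1-OE EC and 0, 1 and 0 in YFP-CTRL EC. Aldh1a1 (chr19:20492583-20643463) had 17, 23 and 18 counts in Meis1-OE EC and 1, 6 and 41 in YFP-CTRL EC, so the highest and the lowest library were both controls. Aldh1a1 made up 96.8 ± 3.71% of the Aldh1a family per length in Meis1-OE EC and 97.7 ± 3.99% in YFP-CTRL EC (SD, n = 3 each, exact two-sided permutation p = 0.7). Even so, it was at only 0.206 ± 0.0358 CPM per kb in Meis1-OE EC and 0.175 ± 0.231 in YFP-CTRL EC.

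The direction of Aldh1a1 turned with the setting. The log2 fold change was 0.18 with all libraries (95% interval -1.84 to 2.19, adjusted p = 0.923 from edgeR). Without YFP-CTRL C it was 2.15 (adjusted p = 0.0415), without YFP-CTRL A -0.33 and with the covariate -1.19 (adjusted p = 0.153).

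**Figure D4:**
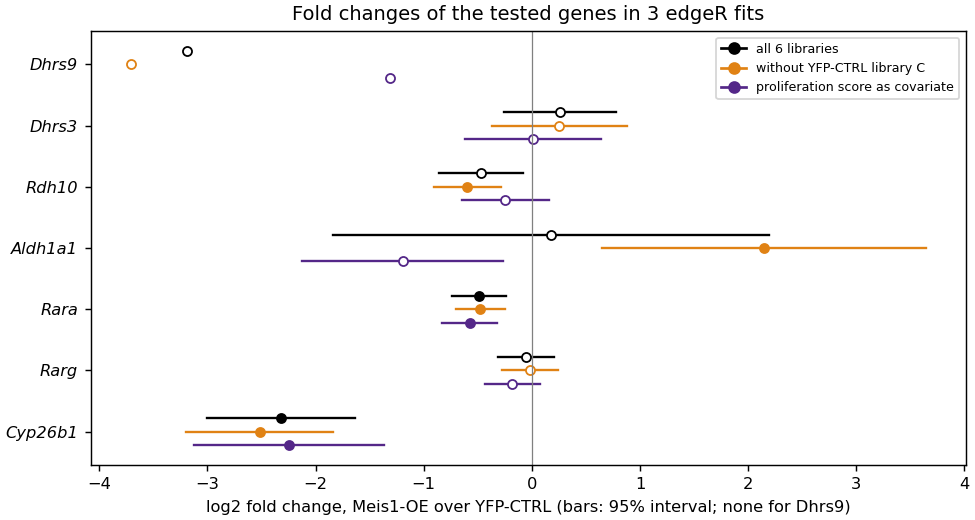
log2 fold changes (Meis1-OE over YFP-CTRL) of the 7 tested genes in edgeR fits with all 6 libraries (black), without YFP-CTRL library C (orange) and with a covariate for the proliferation score (purple). Bars are 95% intervals and filled points passed an adjusted p of 0.05, with no interval or call for Dhrs9. Cyp26b1 stays between -2.52 and -2.25 and Rara between -0.58 and -0.48, while Dhrs9 ranges from -3.71 to -1.31 and Aldh1a1 from -1.19 to 2.15.

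Around these genes, 62 other genes of the pathway were listed by role, and 38 of them had enough counts to be tested. In all, 3 rose past the threshold, among them Stra6 and Lipe, against the 4.14% of all genes tested, and 0 fell. At an unadjusted p under 0.05, 6 were positive and 6 negative, where 12.8% and 13.4% of all genes tested were. DESeq2 called 5 higher and 3 lower, and 6.21% and 6.14% of all genes to which it gave an adjusted p. The median log2 fold change of the 38 was -0.12, and the 3 called genes were all among the 9 tested genes of retinoid uptake, binding and storage, whose median was 1.26.

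Stra6, the membrane receptor that takes up retinol from its carrier in blood, was counted 267, 411 and 364 times in Meis1-OE EC and 0 times in each YFP-CTRL library. No library of one condition came near the other. Against a floor of 3 counts in each YFP-CTRL library, Stra6 was at least 99.9-fold higher in Meis1-OE EC (adjusted p = 0.00195 from edgeR). Its adjusted p was at most 0.0180 in the 12 alternatives in which it was tested. The filter of at least 10 counts in every library left it out. Stra6 passed the main count filter through the Meis1-OE libraries alone, so the counts and not the p-values carry this result.

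Lipe, a lipase that also cleaves retinyl esters, was at 3.41 to 4.09 CPM in Meis1-OE EC and 1.42 to 1.83 CPM in YFP-CTRL EC, a log2 fold change of 1.26 (adjusted p = 0.0169 from edgeR). Its call was lost without any one Meis1-OE library, without YFP-CTRL B and with the covariate (adjusted p up to 0.0999 from edgeR), with log2 fold changes between 1.12 and 1.34 in these fits.

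Other retinoid carriers had values on both sides of 0. Rbp7 and Rbp2, small cellular carriers, had log2 fold changes of 2.77 and 2.50 (adjusted p = 0.0777 and 0.121 from edgeR, and 0.00537 and 0.0297 from DESeq2), on at most 61 counts in any library. Without YFP-CTRL C they were at 4.61 and 4.60 (adjusted p = 0.00516 and 0.00676 from edgeR). Both were highest among the YFP-CTRL libraries in C, at 0.352 and 0.440 CPM. Fabp5, a fatty acid carrier that also brings retinoic acid to PPARδ, was at 7.70 to 9.49 CPM in Meis1-OE EC and 10.9 to 17.8 CPM in YFP-CTRL EC, with a log2 fold change of -0.82 (adjusted p = 0.0674 from edgeR and 0.0126 from DESeq2). It passed without YFP-CTRL A and with the covariate, at -1.03 and -1.14 (adjusted p = 0.0184 and 0.0327 from edgeR). Crabp2, which carries retinoic acid to the RARs, overlapped between the conditions on 11 to 34 counts. Lrat, which stores retinol as esters, had 1 count in all.

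Of 12 tested genes for other oxidoreductases of retinol and retinal, 0 passed in either direction in edgeR with all libraries. At an unadjusted p under 0.05, 2 were lower (Rdh13 and Adh7, with log2 fold changes of -0.62 and -1.47), against 13.4% of all genes tested. DESeq2 called Adh7 lower (adjusted p = 0.0265). Rdh13 was at -0.81 without YFP-CTRL C (adjusted p = 0.00766 from edgeR). Rdh5 and Adh5 also passed in that fit, at -0.69 and -0.50 (adjusted p = 0.0158 and 0.0102 from edgeR), where 15.2% of all genes tested fell. Adh7, a retinol-oxidizing alcohol dehydrogenase, was at 14.2, 17.0 and 3.19 CPM in YFP-CTRL EC and at 3.56 to 4.53 CPM in Meis1-OE EC. YFP-CTRL C was thus below every Meis1-OE library for Adh7, and the log2 fold change was -1.93 without that library and -0.11 with the covariate (adjusted p = 0.000806 and 0.938 from edgeR, against 0.141 with all libraries).

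The genes listed here as retinoic acid targets gave no call in either direction with all 6 libraries. This list leaves out targets placed in other groups, such as Dhrs3, so it does not describe all genes that retinoic acid induces. Of 16 listed, 6 were tested, with log2 fold changes from -0.61 (Thbd) to 0.01 (Hoxb4). Thbd, the thrombin receptor thrombomodulin, was at -0.85 without YFP-CTRL C (adjusted p = 0.00251 from edgeR). Tgm2, the transglutaminase that retinoic acid induces in many cells, was at 125 to 138 CPM in Meis1-OE EC and 125 to 143 CPM in YFP-CTRL EC (log2 fold change -0.04, 95% interval -0.29 to 0.21, adjusted p = 0.855 from edgeR). Of 11 tested partner receptors and coregulators, 0 passed in edgeR with all 6 libraries, 9 had negative values and the range was -0.48 to 0.39. DESeq2 called Crebbp lower (adjusted p = 0.0487). Without YFP-CTRL C, 6 pathway genes were higher and 11 were lower, where 16.5% and 15.2% of all genes tested were called. Of the partner receptors and coregulators, these included Crebbp, Ep300, Ncoa1, Ncoa3, Nrip1 and Rxrb among the lower genes and Ppard among the higher.

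**Figure D5:**
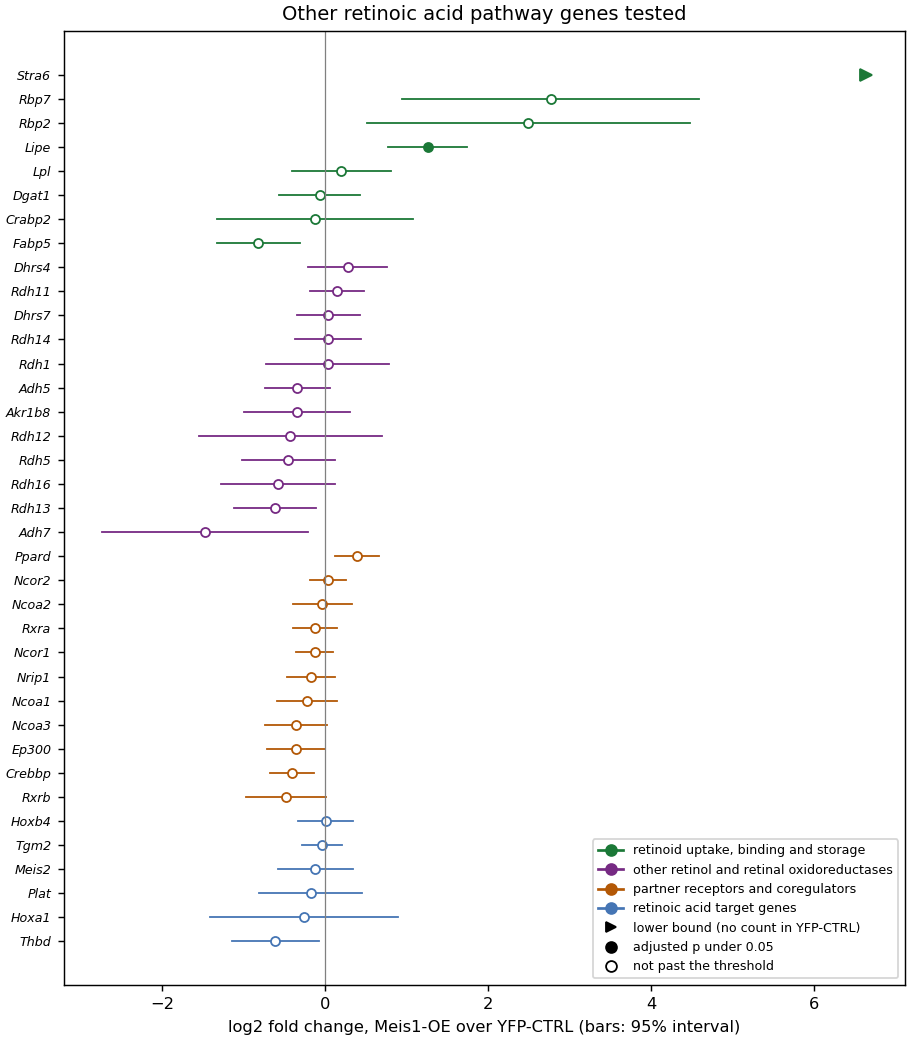
log2 fold changes (Meis1-OE over YFP-CTRL) with 95% intervals of tested pathway genes, coloured by role, with filled points for an adjusted p under 0.05 from edgeR. Stra6 is drawn as a triangle at its lower bound of 6.64, since it had no count in YFP-CTRL EC. Stra6 and Lipe are the called genes shown, both of retinoid uptake, binding and storage.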

How the data were processed

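RNA-seq libraries of 6 EC cultures (3 Meis1-OE, 3 YFP-CTRL) were analysed. The authors deposited estimated counts per gene symbol, not normalized and not pooled, for 54429 genes. The build named in the submitters' processing notes is mm10, and the aligner, counter and annotation are not given in the sources used here. Whether strand was used in counting is likewise not given. Values were rounded to whole numbers (7767 to 8411 genes per library were not whole). Conditions came from the sample labels. The columns show the condition and a letter that matches no replicate number.

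All genes were fitted with edgeR 4.0.16 in R 4.3.3 (filterByExpr, TMM, quasi-likelihood test, condition only, Benjamini-Hochberg over 16065 genes). Standard errors were derived from the F statistic. Family shares were compared with the exact permutation test (scipy 1.17.1), and figures were drawn with matplotlib 3.10.9. The fits were tested on simulated data. The study used DESeq2, which was run here (1.42.0) as an alternative, beside other scalings and filters, each library left out, the column letter as a block and the proliferation score as a covariate. Exon lengths came from an annotation of build NCBIM37, by symbol (10 of 10 genes), and promoter windows and coordinates from RefSeq (GRCm38.p6). The floor was 3 counts, which covers counting error only.

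The genes named are the 10 genes, Meis1, the RXR genes, pathway genes past the threshold (1 of them is counted but not reported here), and the 5 genes most like Dhrs9 and Cyp26b1. Others were named after their values were seen. Members and lists were chosen with earlier results of these data known.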

Additional observations from a re-analysis of the deposited data

How the results depend on the processing

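Depth left Aldh1a2, Aldh1a3 and Rarb untested, and Aldh1a1 rested on at most 41 counts in any library. Over all genes tested, 665 were higher and 438 lower. With DESeq2 these were 1128 and 1115, on library totals 1048 and 180, with the proliferation covariate 380 higher, and with the column letter as a replicate block 189 lower. Leaving out single libraries gave 115 (without Meis1-OE B) to 2717 (without YFP-CTRL C) higher and 16 to 2498 lower (the same libraries), and each library but YFP-CTRL A moved both counts by over 1.5 times. Of the retinoic acid genes other than Dhrs9, 2 were lower (Cyp26b1 and Rara), and 1 was lower on library totals, with no filter on low counts and with the replicate block (Cyp26b1 in each). Leaving out single libraries gave 0 (without Meis1-OE B or C) to 3 lower (without YFP-CTRL C, with Rdh10 added) and 0 to 1 higher (Aldh1a1, without YFP-CTRL C), with 1 lower without Meis1-OE A or YFP-CTRL B. Of the pathway list, 3 were higher and 0 lower, 5 higher and 3 lower with DESeq2, and 1 lower with the covariate (Fabp5), and leaving out single libraries gave 2 to 6 higher and 0 to 11 lower, the highest without YFP-CTRL C and 2 lower without YFP-CTRL A. The log2 fold change of Aldh1a1 was 0.18 and turned to -1.19 with the covariate, and it ranged from -0.33 to 2.15 over the libraries left out (-0.19 without YFP-CTRL B). On library totals Rarg was at 0.095 and Rxra at 0.019, both below the median of 0.15 over all genes tested, and with the covariate Rxrb was at 0.013. The share of Aldh1a1 in its family differed by -0.93 percentage points and by -3.23 to 1.09 over the libraries left out. The Rara share kept its direction in all 7 alternatives run, and Cyp26b1 and Stra6 in all 13 and 12. Rara had an adjusted p of 0.0851 from edgeR with the replicate block and 0.0872 with no filter. The cause of these differences was not tested, except that fits with fewer libraries rest on fewer samples.

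Same-letter libraries of the conditions deviated from their group means with correlations across genes of 0.262, 0.174 and 0.0844 for A, B and C, and Meis1-OE C correlated better with YFP-CTRL B (0.248), so the letters share a name and are not shown to pair the cultures.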

Other observations

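Markers of other tissues that make retinoic acid were looked up beside Aldh1a2. The sum of 5 mesothelial markers was 50.6 to 108 CPM in Meis1-OE EC and 28.8 to 121 CPM in YFP-CTRL EC. Of these, Upk1b and Wt1 had 0 counts in every library, and Upk3b had at most 5. Msln, a mesothelial surface protein, was at 31.8 to 72.2 CPM in Meis1-OE EC and at 28.0, 53.9 and 119 CPM in YFP-CTRL EC, so the conditions overlapped. Krt19, a keratin of mesothelium and epithelium, was counted 1627, 1007 and 871 times in Meis1-OE EC and 21, 56 and 97 times in the YFP-CTRL libraries, while the epithelial genes Epcam and Cdh1 had 0 counts in every library.

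The 4 lymphatic markers summed to 178 to 187 CPM in Meis1-OE EC and 280 to 558 CPM in YFP-CTRL EC. Of the 4, only Lyve1 separated the conditions, so the sum does not describe the list. Flt4 overlapped between them (log2 fold change 0.05, adjusted p = 0.948 from edgeR). It was at 100 to 106 CPM in Meis1-OE EC and at 50.3, 97.0 and 151 CPM in YFP-CTRL EC. Pdpn was not detected at all. Lyve1, a hyaluronan receptor of lymphatic and some other endothelium, was at 76.0 to 84.0 CPM in Meis1-OE EC and at 230, 461 and 161 CPM in YFP-CTRL EC, and did not overlap between the conditions. Prox1, the factor that defines lymphatic endothelium, had at most 2 counts in any library. The 5 smooth muscle markers summed to 1.75 to 4.002 CPM and 0.559 to 20.9 CPM, and the 6 fibroblast markers to 11.91 to 12.03 CPM and 16.1 to 49.5 CPM, in Meis1-OE and YFP-CTRL EC. The smooth muscle gene Acta2 was at 19.8 CPM in YFP-CTRL C and at most at 3.32 CPM in the other libraries. Des, the muscle filament desmin, was counted 20, 18 and 24 times in Meis1-OE EC and 0, 2 and 2 times in YFP-CTRL EC. Its log2 fold change was 3.66 (adjusted p = 0.0150 from edgeR), but it passed the count filter through the Meis1-OE libraries alone. Myh11, Tagln and Cnn1 had too few counts to be tested. The fibroblast list was led by Pdgfra, at 11.7 to 11.9 CPM in Meis1-OE EC and 33.2, 49.1 and 15.6 CPM in YFP-CTRL EC. The part of any of these in the values of the retinoic acid genes was not tested.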
